A study of Rattus norvegicus with 3 samples.

Results

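Vitamin A circulates as retinol bound to RBP4 and enters cells through the membrane receptor STRA6. Inside the cell retinol is oxidized to retinaldehyde, which the ALDH1A enzymes turn into retinoic acid and which DHRS3 can reduce back to retinol. CRABP1 and CRABP2 carry retinoic acid in the cytoplasm, the receptors RARA, RARB and RARG bind it in the nucleus as partners of the RXR receptors, and the CYP26 enzymes break it down. In the nervous system retinoic acid patterns the embryonic spinal cord, and fibroblasts of the meninges are a known source of it.

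The genes described here are RBP4, STRA6, CRABP1, CRABP2, ALDH1A1, ALDH1A2, DHRS3, RARB and CYP26B1, taken by their symbol from the table of all genes. Of these 9, 8 were listed among 12758 gene symbols, and CYP26B1 had no entry under its symbol or a synonym. They bind, import, synthesize, reduce or sense retinoids, so they reach beyond binding and synthesis. The rule compares the same pair of values that is reported here, so their differences are a description of the chosen genes and support nothing about the choice.

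RNA was measured in the supernatant left when cells were spun down from rat spinal cord digested with a protease that works in the cold. Sprague Dawley females aged 3 months underwent laminectomy at T9, and in the SCI group, but not in the No-SCI group, the exposed cord was then contused. Tissue just rostral to the injury was taken 24 h later. The labels give 2 No-SCI libraries and 1 SCI library, while the study's methods state 2 animals per condition. The authors deposited 1 FPKM value for each group and gene, a level scaled by transcript length and by library size, with no value per library, so no SD, n, interval or test between groups can be given, and neither the spread between animals nor the count of reads behind a value is known. Differences are given as the log2 of the SCI value over the No-SCI value, called the log2 ratio, and a gene counts as past the fold where the ratio is at least 2 in either direction, which is 1 on the log2 scale.

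Over all genes the median was 17.2 FPKM in No-SCI and 15.6 FPKM in SCI, with a median log2 ratio of −0.12, and 1012 genes were past the fold higher and 1538 lower. Centring that median at 0 gave 1216 higher and 1224 lower. No value in the table lies below 1, so the ratio of a gene near 1 is understated if a constant had been added. Markers of the cord were present, with oligodendrocyte and neuronal genes such as MOBP and GAP43 among the abundant ones, while GFAP, AQP4, SNAP25 and CHAT had no entry. In such bulk RNA from a supernatant, 3 sources of a higher or lower value cannot be told apart. They are the number of cells of a type, the RNA per cell, and the RNA passing into the supernatant.

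Sequence around the start sites was read from the RefSeq promoter windows of the GRCr8 rat assembly, 250 bases before to 50 bases after each gene's start. Retinoic acid receptors bind direct repeats of a 6-base hexamer, and the repeat with a spacer of 5 bases, called DR5, is the classical response element. All 9 genes had a window, and a DR5 match, searched on both strands, was found in that of RARB alone. The match is shown because RARB is the receptor of this group and is itself known as a target of retinoic acid. Among 47 windows of other genes of the retinoid pathway and of genes known to respond to retinoic acid, 1 held a match, that of CYP26A1, a retinoic acid hydroxylase without an entry in the expression table. The 54 pathway symbols and 13 responsive symbols gave only these 47 windows, so some of those genes were not searched. The hexamers are in capitals and the spacer and 5 flanking bases on each side in lower case, 5′ to 3′.
RARB: ggaagGGTTCAccgaaAGTTCActcgc
CYP26A1: aaagaTGAACTttgggTGAACTaattt
The RARB stretch is chr15:11336411-11336437 on the plus strand, with the repeat 25 to 41 bases into the transcript by the RefSeq start. The CYP26A1 stretch is chr1:244883725-244883751 on the plus strand, where the repeat runs on the opposite strand, 92 to 76 bases before the start. Of 33469 windows of the same length, 128 (0.382%) held a DR5 match. Repeats with spacers of 2 bases (DR2, in 0.17% of windows) and of 1 base (DR1, in 0.233%) were found in none of the 9. A match describes these letters only, and no match says only that they are absent from this window.

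Of the 8 listed genes, 6 were past the fold higher in SCI and 0 lower, beside 7.93% of all genes past the fold higher and 12.1% lower. In order of their log2 ratio these were CRABP2, ALDH1A2, DHRS3, STRA6, RBP4 and RARB. The other two, CRABP1 and ALDH1A1, had lower values in SCI and stayed within the fold. The median log2 ratio of the 8 was 2.47. Since the comparison itself belongs to the rule that chose these genes, nothing is read from these counts.

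**Figure D1:**
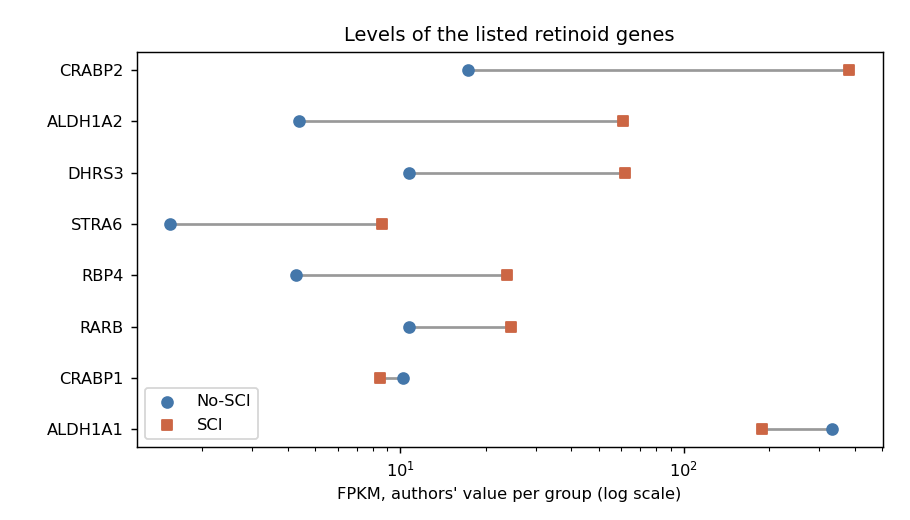
Authors' FPKM value per group for the 8 listed genes, on a log axis, with circles for No-SCI and squares for SCI joined by a line. The lines of CRABP2, ALDH1A2, DHRS3, STRA6, RBP4 and RARB run to the right from No-SCI to SCI, that of CRABP2 from 17.3 to 382 FPKM, while those of CRABP1 and ALDH1A1 run to the left.

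RBP4, the carrier of retinol in plasma, had 4.29 FPKM in No-SCI and 23.7 FPKM in SCI, a 5.53-fold difference and a log2 ratio of 2.47. STRA6, the receptor that takes retinol up from RBP4, had 1.54 FPKM in No-SCI and 8.58 FPKM in SCI, which is 5.56-fold and also a log2 ratio of 2.47. In the values as deposited, the carrier and its receptor thus had nearly the same ratio at different levels. STRA6 was the least abundant of the 8 genes in No-SCI, at percentile 2.19 of all genes, near the lowest value of the table. Subtracting 1 from every value moved its log2 ratio to 3.80 and that of RBP4 to 2.79, so the 2 ratios then differed. The size of the STRA6 difference is the least certain of the 8.

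CRABP2, which delivers retinoic acid to its nuclear receptors, showed the greatest difference of the group. It had 17.3 FPKM in No-SCI, in the middle of all genes at percentile 50.2, and 382 FPKM in SCI, at percentile 95.7. The fold was 22.1 and the log2 ratio of 4.46 was the 6th highest of the table. CRABP1, its paralog, had 10.2 FPKM in No-SCI and 8.48 FPKM in SCI, a log2 ratio of −0.27. In No-SCI the 2 binding proteins were at similar levels, with 1.69 times as much CRABP2 as CRABP1 per transcript length. In SCI the same quotient was 45.0, and CRABP2 made up 97.8% of their summed FPKM.

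The retinaldehyde dehydrogenases had ratios in different directions. ALDH1A2 had 4.40 FPKM in No-SCI and 61.1 FPKM in SCI, a 13.9-fold difference whose log2 ratio of 3.80 ranked 22 among all genes. ALDH1A1 was the most abundant of the 8 in No-SCI, with 334 FPKM at percentile 95.3, and had 188 FPKM in SCI, a log2 ratio of −0.83. ALDH1A3, the other member of this enzyme family, had 2.23 FPKM in No-SCI and 10.99 FPKM in SCI, a log2 ratio of 2.30. Its No-SCI level was low, at percentile 7.13 of all genes. Summed over the 3 enzymes the level was 341 FPKM in No-SCI and 260.5 FPKM in SCI, a log2 ratio of −0.39, so the family total was lower in SCI although ALDH1A2 and ALDH1A3 were higher. ALDH1A1 made up 98.1% of that sum in No-SCI and 72.3% in SCI, and ALDH1A2 1.29% and 23.4%. ALDH1A1 remained 3.08 times as abundant as ALDH1A2 in SCI, against 76.0 times in No-SCI.

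DHRS3, the retinaldehyde reductase that works against retinoic acid synthesis, had 10.8 FPKM in No-SCI and 61.9 FPKM in SCI. The fold was 5.75 and the log2 ratio 2.52. In SCI its level lay beside that of ALDH1A2, 1.01 times as high, whereas in No-SCI it lay beside those of RARB and CRABP1. CYP26B1, which degrades retinoic acid, gave no value, and neither did CYP26A1 or CYP26C1, so the breakdown branch could not be described.

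RARB, the nuclear receptor whose window holds the DR5 match shown above, had 10.7 FPKM in No-SCI and 24.6 FPKM in SCI. Its 2.30-fold difference, a log2 ratio of 1.20, was the smallest among the 6 past the fold. RARA had 18.9 and 57.6 FPKM, a log2 ratio of 1.61, and RARG 5.33 and 6.15 FPKM, a log2 ratio of 0.21. RARA was the most abundant of the 3 receptors in both groups, with 54.1% of their summed FPKM in No-SCI and 65.2% in SCI, and RARB came second with 30.7% and 27.8%.

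**Figure D2:**
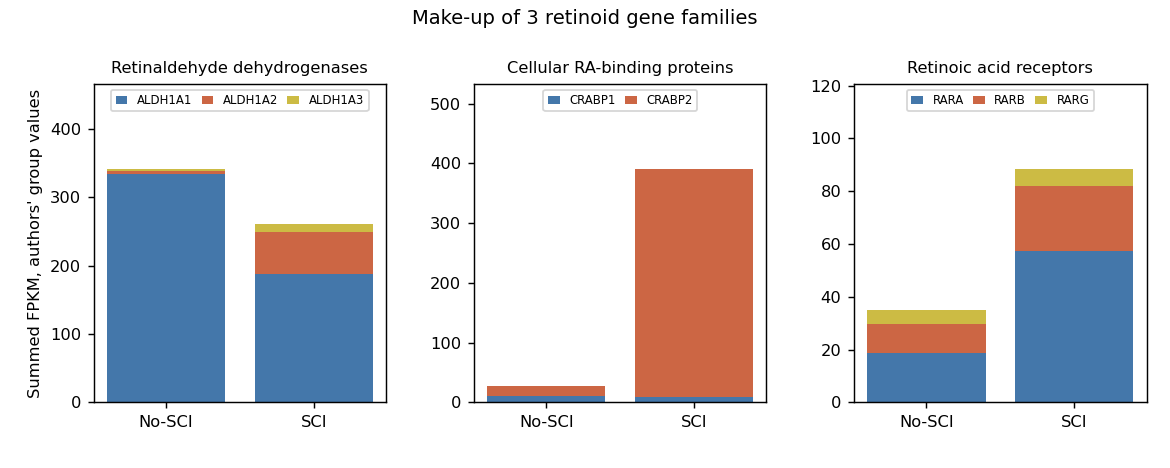
Stacked bars of the authors' FPKM values in No-SCI and SCI for the ALDH1A enzymes, the 2 CRABP genes and the 3 RAR receptors, each panel on its own linear axis from 0. The ALDH1A bar is shorter in SCI and less of it is ALDH1A1, the CRABP bar is almost all CRABP2 in SCI, and the RAR bar goes from 34.9 to 88.3 FPKM with RARA as its largest part in both groups.

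In No-SCI the order of the 8 by FPKM was ALDH1A1, CRABP2, DHRS3, RARB, CRABP1, ALDH1A2, RBP4 and STRA6. ALDH1A1 stood 19.3 times above CRABP2, the next gene, while DHRS3, RARB and CRABP1 followed each other at factors of at most 1.05, and ALDH1A2 and RBP4 lay 1.03 times apart. In SCI the order was CRABP2, ALDH1A1, DHRS3, ALDH1A2, RARB, RBP4, STRA6 and CRABP1, with CRABP2 2.03 times above ALDH1A1. Without a spread between libraries no neighbours in these orders can be said to differ. The values of ALDH1A1, CRABP1, STRA6 and RARB carry up to 7 significant digits and those of the other 4 listed genes at most 6, and the sources used here do not say how the longer values were made.

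A list of 54 symbols of other genes of the retinoid pathway, by role, had 34 listed. Of these, 7 were past the fold higher, 5 lower and 22 within it, beside 7.93% of all genes higher and 12.1% lower. Their median log2 ratio was −0.10, beside −0.12 over all genes. The 7 past the fold higher were CYP1B1, ALDH1A3, CD36, ADH1, DHRS9, RARA and RBP2, and the 5 lower were RLBP1, RPE65, NCOA1, NCOA2 and RDH5. This list was drawn up with values of some of its genes known.

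RBP2, a retinol-binding protein of the intestine, had 3.27 FPKM in No-SCI and 6.83 FPKM in SCI, a log2 ratio of 1.06. RLBP1, which binds retinaldehyde in the visual cycle, went the other way, with 146 and 37.3 FPKM and a log2 ratio of −1.97. FABP5, which can carry retinoic acid to another nuclear receptor, was the most abundant gene of the list, with 1214 and 1686 FPKM and a log2 ratio of 0.47.

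Both listed genes of retinoic acid synthesis besides the members were past the fold higher. They were ALDH1A3, given above, and CYP1B1, a cytochrome that can oxidize retinol, with 13.3 FPKM in No-SCI, 90.2 FPKM in SCI and a log2 ratio of 2.76. Of 12 listed oxidoreductases acting on retinol or retinaldehyde, 2 were past the fold higher and 1 lower. Over all genes, 7.93% were past the fold higher and 12.1% lower. Among the 12, ADH4 and ADH5 have identical values. ADH1, an alcohol dehydrogenase, had 1.42 and 6.14 FPKM (log2 ratio 2.11), and DHRS9 had 1.66 and 5.17 FPKM (log2 ratio 1.64), both from levels near the lowest value of the table. RDH10, the main retinol dehydrogenase of the embryo, had 2.64 and 4.80 FPKM, a log2 ratio of 0.86. RDH5 lay on the line, with 5.31 and 2.66 FPKM and a log2 ratio of −1.0002.

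Among uptake genes CD36, a scavenger receptor for lipids, had 6.76 and 29.6 FPKM (log2 ratio 2.13), and SCARB1 10.2 and 13.4 FPKM (log2 ratio 0.39). TTR, the plasma partner of RBP4, and LRAT, which esterifies retinol for storage, had no entry. Of the 5 listed genes of retinoid storage and release, RPE65 was past the fold lower, with 6.37 and 2.96 FPKM and a log2 ratio of −1.11. The 3 RXR receptors summed to 45.4 FPKM in No-SCI and 33.6 FPKM in SCI, with log2 ratios of −0.01 for RXRA, −0.27 for RXRB and −0.79 for RXRG. The coactivators NCOA1 and NCOA2 were lower, with log2 ratios of −1.08 and −1.001, and the corepressor NCOR1 had −0.08. Of the 5 genes past the fold lower, RLBP1 is the one that stayed so when the median of all genes was centred at 0.

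**Figure D3:**
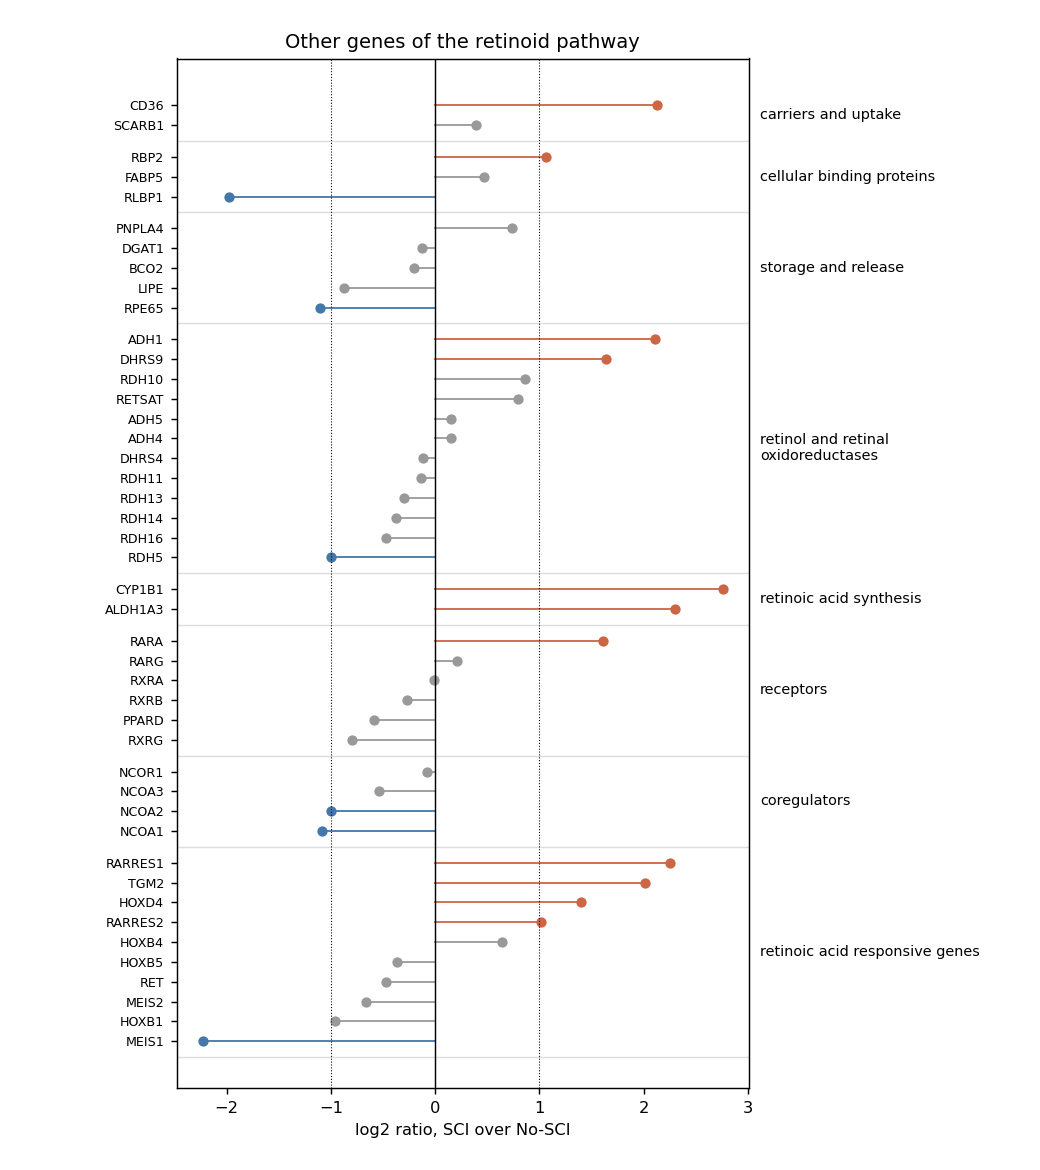
Log2 ratio, SCI over No-SCI, for each listed gene of the retinoid pathway other than the members, and of genes known to respond to retinoic acid, grouped by role, with dotted lines at −1 and 1. CYP1B1 lies farthest to the right at 2.76, and MEIS1 and RLBP1 lie farthest to the left.

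Of 13 genes known to respond to retinoic acid, members left out, 10 were listed, and they were mixed, with a median log2 ratio of 0.14. Past the fold were 4 higher and 1 lower, beside 7.93% of all genes higher and 12.1% lower. TGM2, a tissue transglutaminase, had 40.6 and 164 FPKM (log2 ratio 2.01). RARRES1 had 2.39 and 11.4 FPKM (log2 ratio 2.25), and RARRES2, the chemokine precursor chemerin, 32.3 and 65.1 FPKM (log2 ratio 1.01). HOXD4 had 2.61 and 6.87 FPKM, a log2 ratio of 1.40. MEIS1, a homeobox cofactor of HOX proteins, had 28.8 and 6.14 FPKM, a log2 ratio of −2.23. Within the fold, HOXB1, HOXB5, MEIS2 and RET had log2 ratios of −0.96, −0.37, −0.66 and −0.47, while HOXB4 had 0.64.

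Markers of meningeal and perivascular fibroblasts were mostly higher in SCI, as were 6 of the 8 listed genes chosen here. The 34 other listed genes of the retinoid pathway had a median log2 ratio of −0.10. Of 24 fibroblast markers, with the members left out, 22 were listed, with a median log2 ratio of 2.06. Past the fold were 18 higher and 0 lower, beside 7.93% of all genes higher and 12.1% lower. These markers too were chosen with earlier results of these data known. Their summed level was 5189 FPKM in No-SCI and 7010 FPKM in SCI, most of it APOD, and without APOD 216 and 1851 FPKM. The defining collagen genes COL1A1 and COL1A2 were listed at 1.87 and 2.12 FPKM in No-SCI and at 5.25 and 6.43 FPKM in SCI, DCN went from 15.1 to 156 FPKM, and TBX18 and ITIH5 had no entry. CRABP2 had a larger log2 ratio than 21 of the 22, OSR1 being the exception, and ALDH1A2 was exceeded by OSR1, MGP and ISLR. DHRS3, STRA6 and RBP4 were each exceeded by 10 of the 22, and RARB by 17. CRABP1 and ALDH1A1 lay 2.33 and 2.89 below the median log2 ratio of these markers. The part of fibroblast RNA in the values of the retinoid genes was not tested.

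Markers of other cells gave these values beside them. Over all genes, 7.93% were past the fold higher and 12.1% lower. Of 4 listed Schwann cell genes 2 were past the fold higher, NCMAP and PRX, and the list summed to 63.3 and 103 FPKM. In No-SCI, NCMAP was at 1 FPKM, the lowest value of the table, and PRX at 1.96 FPKM. The 12 listed oligodendrocyte and 8 listed astrocyte markers had median log2 ratios of −1.37 and −1.36, with summed levels of 52652 and 30328 FPKM for the first and 14090 and 8971 FPKM for the second. Of 12 listed neuronal markers 3 were past the fold lower, and SLC5A7 of the cholinergic neurons had no entry, like CHAT. The 11 listed skeletal muscle genes summed to 441 FPKM in No-SCI and 49.5 FPKM in SCI. Endothelial and mural markers had medians of 0.12 and 0.02, with PECAM1, TIE1, TEK and NOTCH3 without an entry. Of 10 listed endothelial genes 2 were past the fold higher, CDH5 and ERG, and 0 lower. Of 9 listed mural genes 0 were past the fold higher and 1 lower, ABCC9. The 14 microglia and macrophage markers were split, with 5 past the fold higher and 3 lower, and their sum was 1017 and 1498 FPKM. Of 4 listed ependymal and choroid plexus genes 1 was past the fold in each direction, of 4 listed adipocyte genes 0, and of 6 listed blood genes 2 were higher and 1 lower. The part of these cells in the retinoid values was not tested.

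**Figure D4:**
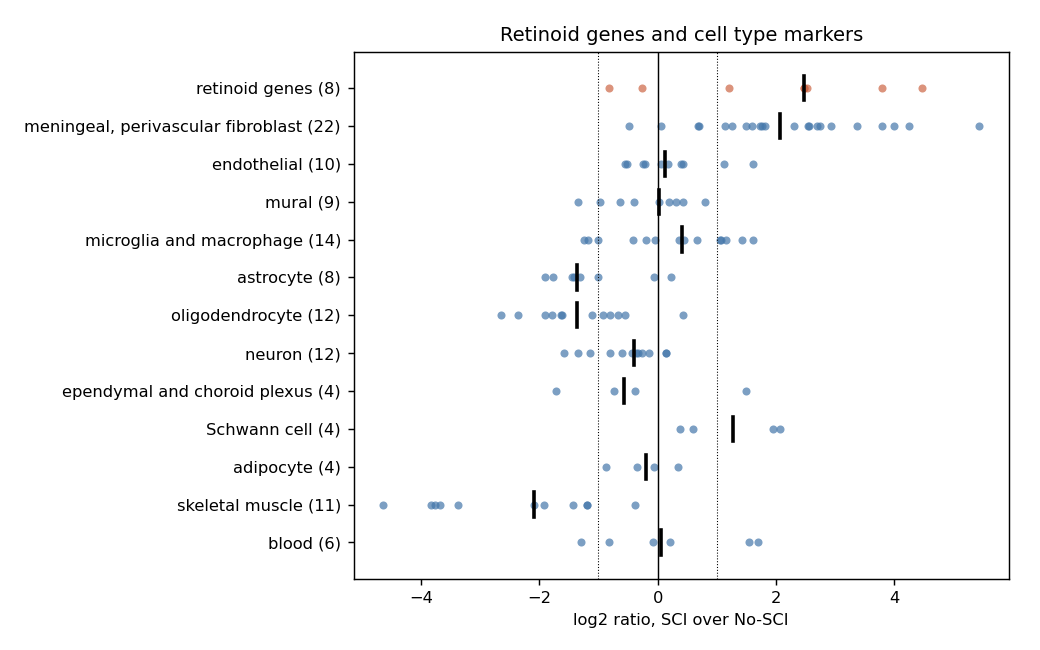
Log2 ratio, SCI over No-SCI, for the 8 retinoid genes in the top row and for the listed markers of each cell type below, each point a gene and each black bar the median, with the number of genes in brackets. The fibroblast row has its median at 2.06 and reaches to 5.43, beyond CRABP2 at 4.46, while ALDH1A1 lies to the left of all its points.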

How the data were processed

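Libraries were stranded total RNA without ribosomal RNA, from supernatants of digested rat spinal cord. The authors reduced every library to the read number of the smallest, mapped to rn6 with STAR 2.5.4b, and estimated FPKM per group with Cuffdiff (cufflinks 1.3.0) under upper quartile normalization. The authors' deposited FPKM table holds 12771 entries, 1 value per group. Its columns of fold changes, p-values, q-values and calls are the authors' own comparison of SCI with No-SCI and were not used.

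Log2 ratios (SCI over No-SCI) used no pseudocount and no filter. For 13 symbols with 2 entries each, the one of larger mean was kept. The study states a nominal read number per sample, but the table holds no counts per gene or library, so no counting error is given. The genes and lists were chosen with earlier results of these data known, and 3 genes of the lists, left out of every list count and sum, and 1 of the nearest genes are not reported here. Named were all members, pathway and retinoic acid responsive genes past the fold with examples of the rest, and otherwise the 3 nearest genes per member. The rule also covered the 3 most abundant markers of each cell type, which are given here mostly within the sums of their lists, with some absent markers named. OSR1 and ISLR were named after their values were seen. Other named markers outside that rule are DCN, COL1A1, COL1A2, NCMAP, CDH5 and ABCC9. Among the pathway and responsive genes within the fold, examples such as RDH10, HOXB1 and HOXB5 were not the most abundant of their groups. Alternatives were pseudocounts of 1 and 0.1, subtraction of 1, 3 scalings, a mean of at least 5, summed entries, and folds of 1.5 and 4. Leaving out ADH4 was added after seeing the data. The ratio step was tested on simulated data. Python 3.11.15, numpy 2.4.6, pandas 2.3.3 and matplotlib 3.10.9 were used. RefSeq names and windows are from GRCr8, and no coordinates of the rn6 values are given.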

Additional observations from a re-analysis of the deposited data

How the results depend on the processing

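No paired analysis was possible because only group values were deposited, and for the same reason no library could be left out. Of 151 recomputed values over 11 settings, 136 were classed as the same, and 0 values past the fold changed sign. A log2 ratio or median was so classed if it moved by less than a factor of 1.5 and kept its side of the fold. A count was so classed if it changed by a factor of at most 1.5. The 1538 genes past the fold lower, which became 2057 with 1 subtracted, are thus classed as the same. The 6 genes past the fold higher stayed at 6 under every pseudocount, scaling and filter and became 5, without RARB, at a fold of 4, and CRABP1 and ALDH1A1 stayed lower in SCI, from −0.30 to −0.15 and from −0.83 to −0.71. STRA6 moved most, to 1.91 when 1 was added to both values and to 3.80 when 1 was subtracted. The 5 pathway genes past the fold lower became 3 with a pseudocount of 0.1, with equal totals and with a mean of at least 5, 2 with a pseudocount of 1 and with equal upper quartiles, and 1 with the median centred. The median of the pathway list, −0.10, was 0.02 with the median centred, 0.0066 with equal upper quartiles and −0.05 with equal totals. A fold of 1.5 gave 1 member lower, ALDH1A1, 8 pathway genes lower, and 2153 higher and 3355 lower of all genes. A fold of 4 gave 4 pathway genes higher and 0 lower, and 215 higher and 154 lower of all genes. Without counts per gene, the effect of sequencing depth on low genes such as STRA6 could not be measured.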

Other observations

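Genes outside the lists were placed by their distance to each member over the log2 No-SCI and log2 SCI values, which are 2 values per gene, so the likeness describes level and ratio in these groups and nothing more. Nearest to ALDH1A2 were SLC6A20, an amino acid transporter with 3.72 FPKM in No-SCI and 64.0 FPKM in SCI at a distance of 0.25, PARD6G, and ADH6, an alcohol dehydrogenase with 4.81 and 47.3 FPKM. Nearest to CRABP2 were NUPR1L1 and NUPR1, with log2 ratios of 4.33 and 4.25, and FHL2 with 4.15. Nearest to DHRS3 were NRTN, the neurotrophic factor neurturin, the matrix protein gene PRELP, and TAF10. Nearest to STRA6 was RGD1561662 at a distance of 0.10, followed by CCDC6 and UPK1B. Nearest to RBP4 was ADA, adenosine deaminase, at a distance of 0.05, with 4.31 FPKM in No-SCI and 24.5 FPKM in SCI, followed by GIMAP5 and EYA2. Nearest to RARB were TES, HNRNPLL and SPINDOC, nearest to CRABP1 were HPS3, CLN8 and KDM5A, and near ALDH1A1 lay PDCD4 and GADD45A.

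ADH4 and ADH5, alcohol dehydrogenases of the pathway list, are listed with identical values in both groups, 33.7 FPKM in No-SCI and 37.5 FPKM in SCI. In all, 29 symbols fall in 12 such sets, and 0 of the retinoid members are among them. Counting the pair once left the number of pathway genes past the fold at 7 higher and 5 lower.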
